A study of Mus musculus with 8 samples.

Results

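The genes described here are 39 genes of voltage-gated ion channels and their subunits, taken by gene symbol from 23284 symbols counted in E15.5 mouse dorsal cortex. The list holds 3 sodium channel alpha subunits and 3 sodium channel beta subunits, 8 calcium channel alpha1 subunits, 4 calcium channel beta subunits and 3 alpha2delta subunits. It also holds 13 voltage-gated potassium channels (Kv), 2 calcium-activated potassium channels (KCa) and 3 hyperpolarization-activated cation channels (HCN). All 39 symbols were present in every library, and all 39 passed the filter on low counts, as did 14696 genes in all. The label voltage-gated fits the pore-forming genes with an exception, since Kcnn2 encodes a small-conductance potassium channel that is opened by calcium and not by voltage. The beta and alpha2delta genes encode auxiliary subunits that form no pore.

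Voltage-gated channels open and close as the membrane potential changes. In neurons, sodium channels carry the upstroke of the action potential, calcium channels couple depolarization to transmitter release and gene expression, and potassium channels repolarize the membrane and set its resting excitability. HCN channels open on hyperpolarization and carry an inward pacemaker current. In embryonic cortex, calcium and sodium channels are already made while neurons are still being born, and several of them take part in migration and early spontaneous activity before mature firing appears.

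RNA-seq was performed on cortex of C57BL/6 embryos, with 4 libraries labelled ErbB4+/+ (WT) and 4 labelled ErbB4-/- (KO). Each line was bred as its own homozygous colony, and the KO line survives through an ErbB4 transgene driven by a cardiac (alpha-MHC) promoter, so that ErbB4 is intended to be missing everywhere except in the heart. Meninges and ganglionic eminences had been removed by dissection. Colony and genotype of the dam thus went with the label, and their effects cannot be told apart from that of the embryo's genotype. The litters and sexes of the embryos are not stated, so a p-value measures only the spread between these libraries. The comparison asks whether channel genes differ in cortex between the genotypes of the labels.

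Each library held 28205703 to 48871480 counted reads, and libraries correlated with r of 0.984 to 0.9949 across genes. Erbb4 itself, the targeted gene, did not check the labels. It lay between 8.99 and 25.3 CPM (reads of the gene scaled to a common library size) in WT libraries and between 20.7 and 24.6 CPM in KO libraries (log2 fold change 0.28, SE 0.23, adjusted p = 0.812 by edgeR), and the gene count does not show which exons were read. Directions below are therefore those of libraries labelled KO against libraries labelled WT. WT replicates 1 to 3 had 983 to 1687 CPM of Xist, the RNA of the inactive X chromosome, and 0.257 to 0.495 CPM of the Y-linked Ddx3y. WT replicate 4 and the 4 KO libraries had 2.70 to 3.82 CPM of Xist and 76.4 to 80.9 CPM of Ddx3y, so that sex and label cannot be fully told apart. WT replicate 1 stood apart from the other libraries in another way. Its deviation from the mean of all libraries fell with transcript length (Spearman correlation of -0.579 across 14392 genes, which are not independent replicates), against correlations of 0.0374 to 0.223 in the other 7 libraries. This bears on channel genes because their transcripts are long, with a median of 6196 nt (2622 to 13321) against 3170 nt for all tested genes with a length. Many fold changes and counts above 0 are therefore also given without WT replicate 1.

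Short coding stretches show what these families share and why they were grouped by role. They were read from the longest annotated coding sequence of each gene (GENCODE annotation of NCBIM37, mm9) and are written 5' to 3' on the coding strand. High-voltage-activated calcium channels bind a beta subunit through a conserved stretch in the loop between domains I and II, whereas low-voltage-activated (T-type) channels lack it. The search asked for a run of 18 codons, of which the fixed ones code for glutamine, glutamine, any, glutamate, any, any, leucine, any, glycine, tyrosine, any, any, tryptophan, isoleucine, any, any, any and glutamate. It matched once in each of Cacna1a, Cacna1b, Cacna1c, Cacna1d and Cacna1e, in none of Cacna1g, Cacna1h and Cacna1i, and in 7 of 22737 coding genes (0.0308%). No match says only that these codons are not in the sequence read. This is the site that Cacnb1 to Cacnb4 products occupy, and it is shown because the beta subunit gene Cacnb3 has the highest level per kb of transcript of the whole list while the T-type gene Cacna1h, without a match, leads the alpha1 genes. The stretches are at chr6:118684924-118684977 (Cacna1c, minus strand) and chr14:30955786-30955839 (Cacna1d, minus strand), and across an intron within chr8:87060024-87060302 (Cacna1a, plus strand), chr2:24574620-24575512 (Cacna1b, minus strand) and chr1:156335967-156340483 (Cacna1e, minus strand). Capitals mark the matched codons, which fill each sequence. The L-type genes Cacna1c and Cacna1d are identical at 49 of 54 bases, and Cacna1a and Cacna1b at 45 of 54.
Cacna1a: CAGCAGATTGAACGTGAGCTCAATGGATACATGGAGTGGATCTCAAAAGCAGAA
Cacna1b: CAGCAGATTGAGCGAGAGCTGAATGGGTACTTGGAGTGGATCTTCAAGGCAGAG
Cacna1c: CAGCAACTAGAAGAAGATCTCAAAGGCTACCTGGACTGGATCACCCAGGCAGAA
Cacna1d: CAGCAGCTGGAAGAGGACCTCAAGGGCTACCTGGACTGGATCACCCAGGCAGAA
Cacna1e: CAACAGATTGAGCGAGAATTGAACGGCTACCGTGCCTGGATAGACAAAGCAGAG

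Potassium and HCN channels share the selectivity filter of the pore, searched for as codons for glycine, then tyrosine or phenylalanine, then glycine. Where several places matched, the one preceded by codons of the filter was kept (threonine or serine, then valine, isoleucine, threonine or leucine, or, in HCN genes, cysteine and isoleucine). A single place remained in 18 of 18 genes. The bare search is unspecific and matched 12.8% of all coding genes. Stretches of some of these genes lie at chr3:105262829-105461544 (Kcnd3, across an intron, plus strand), chr3:107250708-107250734 (Kcnc4, minus strand), chr15:65855284-65855310 (Kcnq3, minus strand), chr1:194161633-194161659 (Kcnh1, plus strand), chr14:24347626-24347652 (Kcnma1, minus strand), chr3:88954919-88954945 (Hcn3, minus strand) and chr9:58703389-58703415 (Hcn4, plus strand). Capitals mark the glycine, tyrosine or phenylalanine, and glycine codons. The HCN genes Hcn3 and Hcn4 are identical at 23 of 27 bases.
Kcnd3: actacactgGGATATGGAgacatggtg
Kcnc4: acaacgcttGGCTATGGGgacatgtat
Kcnq3: gccaccattGGTTATGGAgacaagaca
Kcnh1: accagtgtgGGCTTTGGTaacattgcc
Kcnma1: tctacagtgGGTTATGGGgacgtttat
Hcn3: ctatgcattGGCTATGGGcagcaggca
Hcn4: ctgtgcattGGGTATGGAcggcaggca

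Levels were compared between genes only per length, as CPM divided by the length of the longest annotated transcript in kb. Cacnb3, a cytosolic beta subunit of calcium channels, had the highest level per kb of the 39 genes at 96.0 (87.9 to 101 over the 8 libraries). Scn3b, a membrane-spanning beta subunit of sodium channels, followed at 44.8 (36.1 to 51.0). The ranges of Cacnb3 and Scn3b overlapped neither each other nor that of any other gene on the list. The next genes were the T-type calcium channel gene Cacna1h at 19.6 (13.8 to 23.4), Cacna2d1, an extracellular calcium channel subunit that gabapentin binds, at 16.3 (14.0 to 17.4), and Cacnb1 at 16.3 (14.4 to 17.7). Their ranges overlapped, so their order does not hold beyond the spread between libraries. At the low end were Kcna4, an A-type potassium channel gene, at 0.880 (0.729 to 0.961) and Kcnh7, an ether-a-go-go related gene, at 1.03 (0.645 to 1.18). Scn4b, a beta subunit gene of mature neurons, was lowest at 0.0585 (0.0116 to 0.114), resting on 2 to 22 reads per library. Of the 39 genes, 37 had over 100 reads in every library.

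**Figure D1:**
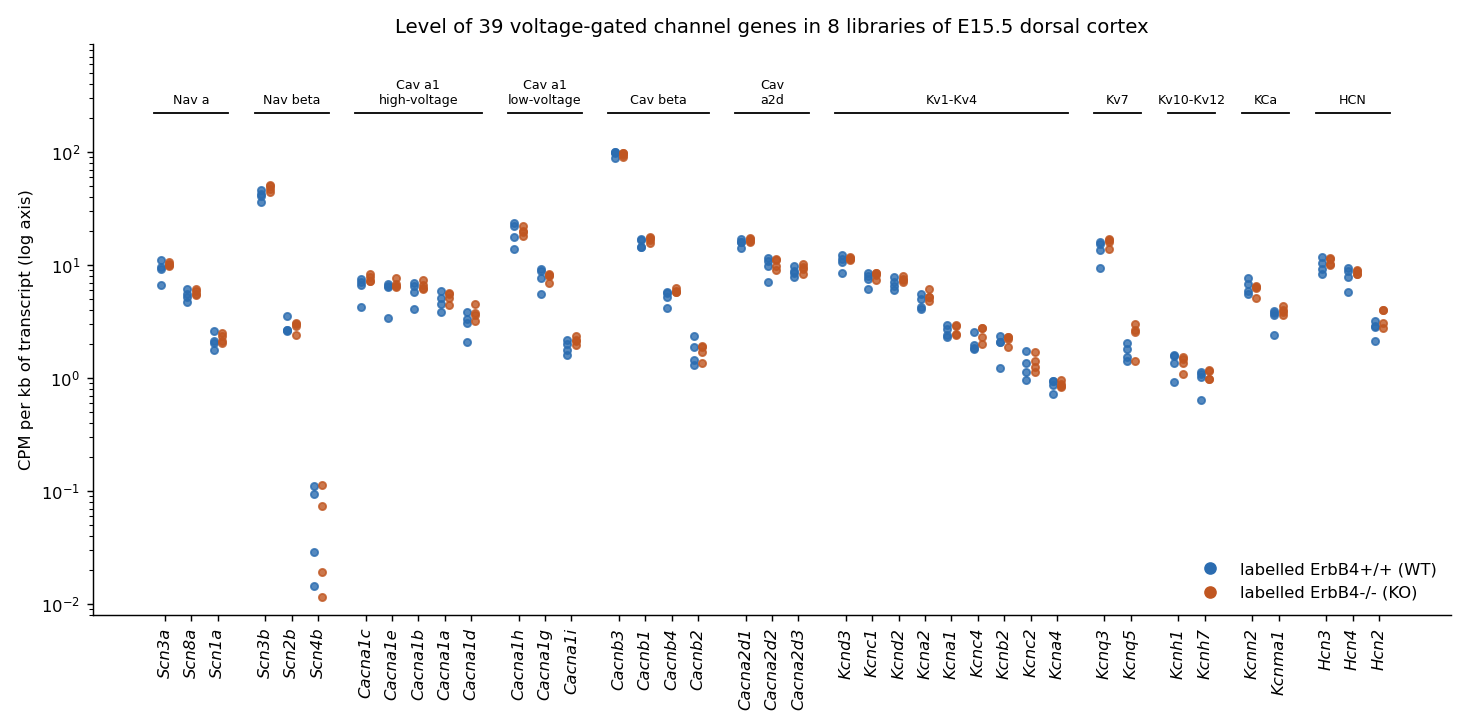
Level of each channel gene as CPM per kb of its longest annotated transcript (vertical, log axis), by channel class and in order of mean level within it, with a point for each of the 4 WT and 4 KO libraries. Cacnb3 and Scn3b stand above the other genes at 96.0 and 44.8 on average, Scn4b lies far below them at 0.0585, and WT and KO points overlap for every gene.

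Summed by class, the 4 calcium channel beta subunit genes took 32.6% of the level per kb of the list, the largest share, with 31.0% to 38.4% over the libraries. Sodium channel beta subunits took 12.9%, the 9 genes of the Kv1 to Kv4 families 10.9%, alpha2delta subunits 9.60%, low-voltage-activated alpha1 subunits 7.96% and high-voltage-activated alpha1 subunits 7.55%. HCN channels took 5.89%, sodium channel alpha subunits 4.71%, the Kv7 genes 4.54%, calcium-activated potassium channels 2.71% and Kv10 to Kv12 genes 0.648%. The order depends on the length used. Per kb of coding sequence, sodium channel beta subunits led with 34.9% and calcium channel beta subunits followed with 25.9%, and Scn3b moved above Cacnb3. Auxiliary beta subunits held the top place on both scales. Kcnq3 has only a coding transcript in this annotation (2622 nt), and Kcnb2 and Scn8a each have 2 gene entries, so that the levels per kb of these 3 genes are uncertain.

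Several families were led by a single gene among the listed members. Scn3a, the sodium channel gene best known from embryonic brain, gave 55.3% of the summed alpha subunit level per kb, against 32.1% for Scn8a and 12.6% for Scn1a, the genes best known from the adult axon and from interneurons. Scn3b gave 93.8% of the sodium channel beta level. Cacnb3 gave 80.3% of the calcium channel beta level, followed by Cacnb1 with 13.6%, Cacnb4 with 4.68% and Cacnb2 with 1.45%. Cacna2d1 gave 46.0% of the alpha2delta level, and Hcn3 gave 47.6% of the HCN level, ahead of Hcn4 with 38.2% and Hcn2 with 14.2%. Other genes of these families, such as Scn2a1, are not on the list and are not in these shares. Among alpha1 genes, Cacna1h held the first place with 34.1% followed by Cacna1g with 13.7%, and by coding length Cacna1h led with 30.8%, followed by Cacna1e with 15.8% and Cacna1g with 12.5%. The 3 T-type genes together made 52.8% ± 1.72 (SD, n = 4) of the alpha1 level in WT libraries and 49.9% ± 1.44 (SD, n = 4) in KO libraries, a difference for which no test was run. By coding length they made 47.4% over all libraries. In the Kv families Kcnq3 gave 24.7%, Kcnd3 18.6% and Kcnc1 13.2%, and by coding length Kcnd3 led with 24.9%, followed by Kcnc1 with 21.3%, while Kcnq3 gave 9.07%.

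None of the 39 channel genes passed an adjusted p of 0.05 in the comparison of KO with WT libraries, and 2 of them, Scn3b and Kcnq5, had an unadjusted p under 0.05. Over all 14696 tested genes, 0.0272% passed the adjusted threshold and 5.53% had an unadjusted p under 0.05, so the 2 members make a share near the background. Both were higher in KO libraries, and 3.00% of all tested genes had an unadjusted p under 0.05 and a higher level in KO libraries. Adjusted p-values of the 39 genes lay between 0.810 and 0.999 in edgeR's quasi-likelihood test with Benjamini-Hochberg adjustment. DESeq2 called 0 of the 39 as well, with 3 at an unadjusted p under 0.05, against 5.10% of the 18851 genes it tested.

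The fold changes leaned in a common direction without passing the test. The log2 fold change was above 0 in 34 of the 39 genes and below 0 in 5, with a median of 0.11, while it was above 0 in 49.2% of all tested genes, with a median of -0.00217. The range was from -0.14 (Scn4b) to 0.51 (Kcnq5), and standard errors were 0.06 to 0.67. No gene on the list had all KO libraries above all WT libraries, which was the case for 1.86% of all tested genes, or all KO libraries below them. The members are not independent of each other, since they were counted in the same 8 libraries. Without WT replicate 1, the log2 fold change was above 0 in 25 of 39 genes, with a median of 0.03. Without WT replicate 2, the library in which 13 of these genes were highest, it was above 0 in 38, with a median of 0.20. After removal of the trend of each library with transcript length it was above 0 in 28, with a median of 0.07. WT replicate 4 and the 4 KO libraries had at least 10 CPM of Ddx3y and are called those with Ddx3y reads below. In these 5 libraries the log2 fold change was above 0 in 27 genes, with a median of 0.05. That fit assumes that the lone WT library varies as the KO libraries do.

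**Figure D2:**
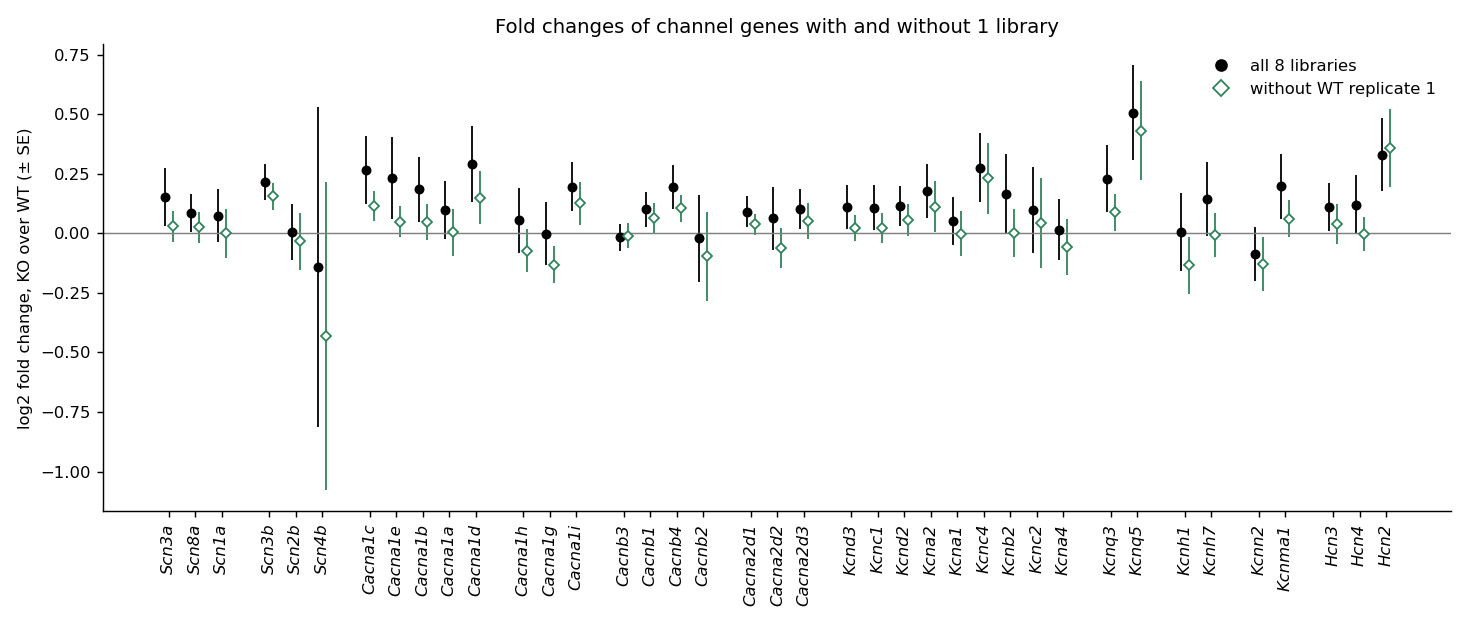
log2 fold change of KO over WT libraries (vertical, with SE bars) of the 39 channel genes by class, with all 8 libraries (filled circles) and without WT replicate 1 (open diamonds). With all libraries 34 of 39 values lie above 0, without WT replicate 1 it is 25 of 39, and Scn4b, with 2 to 22 reads per library, has the widest bars.

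Among sodium channel genes the alpha subunits lay close together, with log2 fold changes of 0.07 to 0.15, while the beta subunits ranged from -0.14 to 0.22. Without WT replicate 1 the alpha subunits were between -8.5e-06 and 0.03, and without WT replicate 2 between 0.15 and 0.26. Scn3a, on chromosome 2 from 65295175 to 65405684, had 63.7, 107, 91.1 and 88.2 CPM in WT replicates 1 to 4 and 98.0, 101, 94.8 and 95.8 CPM in KO replicates 1 to 4. The KO values fell inside the WT range, whose lowest value was that of replicate 1 and highest that of replicate 2. Its log2 fold change was 0.15 with SE 0.12 and an adjusted p of 0.811, and 0.03 without WT replicate 1.

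Scn3b, on chromosome 9 from 40076801 to 40099203, had the smallest p of the list. It had 163, 209, 192 and 185 CPM in WT replicates 1 to 4 (187 ± 18.9, SD, n = 4) and 225, 230, 213 and 200 CPM in KO replicates 1 to 4 (217 ± 13.3, SD, n = 4). The groups overlapped only in that WT replicate 2 lay above KO replicate 4. The log2 fold change was 0.22 (SE 0.07, unadjusted p = 0.0146, adjusted p = 0.810 by edgeR), and the exact two-sided permutation test of log2 CPM gave p = 0.0571, where 4 libraries against 4 allow 0.0286 at the lowest. Without WT replicate 1 the log2 fold change was 0.16. The other beta genes, Scn2b and Scn4b, had log2 fold changes of 0.00621 and -0.14. Without WT replicate 1 these were -0.03 and -0.43, and without WT replicate 2 they were 0.12 and 0.23. Scn4b was counted with 2, 17, 18 and 5 reads in WT libraries and 18, 2, 22 and 3 reads in KO libraries, with a standard error of 0.67, the largest of the list.

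High-voltage-activated calcium channel genes all had fold changes above 0. The log2 fold changes of the 5 genes were 0.10 to 0.29, with a median of 0.23, and 0.00485 to 0.15, with a median of 0.05, without WT replicate 1. Without WT replicate 2 they were 0.21 to 0.41, with a median of 0.29. Cacna1c, the L-type gene on chromosome 6 from 118542314 to 119146249, had 32.2, 57.0, 50.8 and 53.8 CPM in WT replicates 1 to 4 and 55.1, 63.7, 55.3 and 59.4 CPM in KO replicates 1 to 4. WT replicate 1 lay far below the other libraries, and WT replicate 2 lay within the KO range. Cacna1c had a log2 fold change of 0.27 with SE 0.14 and an adjusted p of 0.810, and 0.12 without WT replicate 1. Cacna1d, the other L-type gene, on chromosome 14 from 30853135 to 31304342, had 19.3, 35.2, 28.3 and 30.5 CPM in WT libraries and 33.2, 41.7, 34.7 and 29.3 CPM in KO libraries. Its groups overlapped, with KO replicate 2 highest and WT replicate 1 lowest. Cacna1d stood at a log2 fold change of 0.29 with SE 0.16 and an adjusted p of 0.810, and 0.15 without WT replicate 1. Exons of Chdh on the opposite strand cover 5.54% of the exonic bases of Cacna1d, and unstranded reads there cannot be assigned to either gene. Cacna1e, of the R-type channel, showed how far a single library reached, at 43.2 CPM in WT replicate 1 and 81.3 to 97.0 CPM in the other 7 libraries.

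T-type calcium channel genes had log2 fold changes of -0.00135 to 0.20, and differences among them were not tested. Of the 3 genes, 2 had log2 fold changes above 0 with all libraries, 1 without WT replicate 1 and 3 without WT replicate 2. Cacna1h, on chromosome 17 from 25511230 to 25570728, had 114, 193, 145 and 182 CPM in WT libraries and 166, 182, 148 and 162 CPM in KO libraries. All KO values were inside the WT range. Cacna1h had a log2 fold change of 0.06 with SE 0.14 and an adjusted p of 0.934, and it was -0.07 without WT replicate 1. Cacna1i, on chromosome 15 from 80117668 to 80228709, had 15.7, 21.4, 17.2 and 19.6 CPM in WT libraries and 19.2, 23.2, 20.9 and 21.3 CPM in KO libraries, with overlap at WT replicates 2 and 4. Its log2 fold change was 0.20 with SE 0.10 and an adjusted p of 0.810, and 0.13 without WT replicate 1. Cacna1g stood at -0.00135, and at -0.13 without WT replicate 1.

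The auxiliary calcium channel subunits included the genes with the smallest standard error of the list, 0.06. Cacnb3, on chromosome 15 from 98462651 to 98474961, had 276, 281, 248 and 284 CPM in WT libraries and 275, 278, 257 and 267 CPM in KO libraries. The KO values lay inside the WT range, and WT replicate 1 was not low here. Cacnb3 had a log2 fold change of -0.02 with SE 0.06 and an adjusted p of 0.957. Cacnb4, on chromosome 2 from 52283845 to 52532350, had 34.6, 47.5, 46.6 and 42.8 CPM in WT libraries and 48.9, 52.0, 48.0 and 47.2 CPM in KO libraries. Its groups touched only at WT replicate 2 and KO replicate 4. The log2 fold change was 0.19 (SE 0.09, adjusted p = 0.810; exact two-sided permutation p = 0.0571) and 0.10 without WT replicate 1, while exons of A430018G15Rik on the opposite strand cover 16% of its exonic bases. Cacna2d1, on chromosome 5 from 15440509 to 15880329, had 105 CPM in WT replicate 1 and 119 to 130 CPM in the other 7 libraries, with a log2 fold change of 0.09 (SE 0.06 and an adjusted p of 0.810), and 0.04 without WT replicate 1.

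Kv1 to Kv4 genes, which set spike threshold, repolarization and firing rate, had 9 of 9 log2 fold changes above 0, from 0.02 to 0.28. Without WT replicate 1 it was 7 of 9, from -0.06 (Kcna4) to 0.23 (Kcnc4), and without WT replicate 2 it was 9 of 9, from 0.02 to 0.40. Kcnd3, an A-type gene on chromosome 3 from 105255248 to 105476920, had 61.5, 87.5, 75.7 and 80.8 CPM in WT libraries and 84.6, 83.4, 81.7 and 80.2 CPM in KO libraries. The KO libraries lay close together within the WT range, and the log2 fold change was 0.11 with SE 0.09 and an adjusted p of 0.815, or 0.02 without WT replicate 1. Kcnc4, a gene of the Kv3 family, whose channels open at strongly depolarized potentials, on chromosome 3 from 107241221 to 107261816, had 5.49, 7.64, 5.53 and 5.87 CPM in WT libraries and 8.30, 8.30, 6.10 and 6.96 CPM in KO libraries. WT replicate 2 lay above KO replicates 3 and 4. Its log2 fold change was 0.28 with SE 0.14 and an adjusted p of 0.810, and 0.23 without WT replicate 1. Kcna2, an axonal channel gene on chromosome 3 from 106904485 to 106909797, ranged from 14.0 to 19.1 CPM in WT libraries and from 16.6 to 21.3 CPM in KO libraries (log2 fold change 0.18, SE 0.11, adjusted p = 0.810). It was 0.11 without WT replicate 1, 0.10 without KO replicate 4, 0.36 with Xist as a covariate and 0.33 in the libraries with Ddx3y reads.

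The Kv7 genes encode the slow M-current channels that damp repetitive firing. Kcnq5, on chromosome 1 from 21388484 to 21952023, had the largest fold change of the list. It had 9.84, 14.3, 10.7 and 12.6 CPM in WT replicates 1 to 4 (11.9 ± 2.00, SD, n = 4) and 18.5, 21.0, 18.0 and 9.91 CPM in KO replicates 1 to 4 (16.8 ± 4.81, SD, n = 4). KO replicates 1 to 3 were above every WT library, whereas KO replicate 4 was at the level of the lowest WT library. The log2 fold change was 0.51 (SE 0.20, unadjusted p = 0.0260, adjusted p = 0.810 by edgeR), with an exact two-sided permutation p = 0.143. It was 0.68 without KO replicate 4 (adjusted p = 0.184), the lowest adjusted p of the list under any alternative, and 0.43 without WT replicate 1. Exons of Gm16705 on the opposite strand cover 3.07% of its exonic bases. Kcnq3, on chromosome 15 from 65826733 to 66117786, had 24.5, 35.9, 40.2 and 41.8 CPM in WT libraries and 36.3, 42.3, 45.0 and 43.6 CPM in KO libraries. Its log2 fold change was 0.23 with SE 0.14 and an adjusted p of 0.810 and 0.09 without WT replicate 1, and it was -0.00137 in the 5 libraries with Ddx3y reads.

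**Figure D3:**
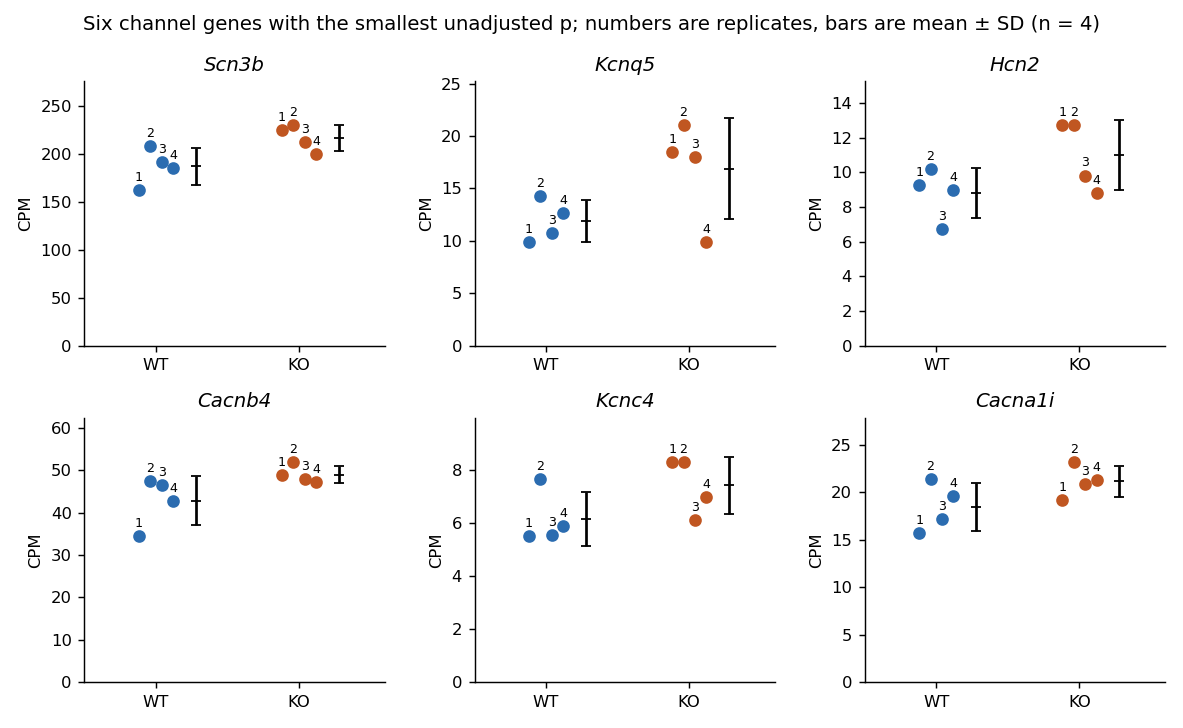
CPM of the 6 channel genes with the smallest unadjusted p in each library (numbers are replicates), with mean and SD (n = 4) beside each group. In all 6 panels at least 1 WT library lies above the lowest KO library, and in Kcnq5 KO replicate 4, at 9.91 CPM, lies apart from the 3 KO libraries at 18.0 to 21.0 CPM.

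The remaining potassium channels ranged from -0.09 (Kcnn2) to 0.20 (Kcnma1) in log2 fold change. Kcnh1, an ether-a-go-go gene on chromosome 1 from 194014666 to 194334041, had 6.74 to 11.5 CPM in WT and 7.90 to 11.2 CPM in KO libraries (log2 fold change 0.00622, SE 0.16, adjusted p = 0.994, and -0.13 without WT replicate 1). Kcnma1, the large-conductance channel gated by both calcium and voltage, on chromosome 14 from 24117983 to 24622526, averaged 15.8 CPM over WT libraries (SD 3.26, n = 4) and 18.1 CPM over KO libraries (SD 1.37, n = 4). WT replicate 1 was the lowest, below the 16.6 to 19.8 CPM of the other 7 libraries. Its log2 fold change was 0.20 with SE 0.14 and an adjusted p of 0.810, 0.06 without WT replicate 1. Kcnn2, on chromosome 18 from 45428659 to 45845678, had 20.3 to 28.3 CPM in WT and 19.0 to 24.2 CPM in KO libraries, and is among the 5 genes below 0 (log2 fold change -0.09, SE 0.11, adjusted p = 0.866). The Kcnn2 value was -0.13 without WT replicate 1 and 0.00528 without WT replicate 2. With Xist as a covariate it was 0.17, and in the libraries with Ddx3y reads 0.14.

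All 3 HCN genes had fold changes above 0 with all libraries, and 2 of them without WT replicate 1, where Hcn4 was at -0.00236. Without WT replicate 2 the 3 genes were between 0.20 and 0.41. Hcn2, on chromosome 10 from 79179379 to 79198853, had 9.27, 10.2, 6.75 and 9.00 CPM in WT libraries and 12.7, 12.7, 9.81 and 8.80 CPM in KO libraries. KO replicates 1 and 2 were above every WT library and KO replicate 4 was below 3 of them. Hcn2 had a log2 fold change of 0.33 with SE 0.15 and an adjusted p of 0.810, and without WT replicate 1 it was 0.36. Hcn3, on chromosome 3 from 88949996 to 88964118, had 33.7, 47.4, 36.9 and 41.5 CPM in WT libraries and 45.9, 44.9, 40.3 and 41.1 CPM in KO libraries (log2 fold change 0.11, SE 0.10, adjusted p = 0.827, and 0.04 without WT replicate 1). Exons of Pklr on the opposite strand cover 17.1% of the exonic bases of Hcn3, the largest such share on the list.

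Across libraries, channel genes also differed between libraries of the same label. WT replicate 1 was the lowest of the 8 libraries in 32 of the 39 genes, against 29.5% of all tested genes. The highest library was WT replicate 2 in 13 genes and KO replicate 2 in 13. Measured as the median over the 39 genes of the log2 difference from the mean of all libraries, WT replicates 1 to 4 were at -0.35, 0.15, -0.04 and 0.02 and KO replicates 1 to 4 at 0.10, 0.15, 0.04 and 0.02. WT replicates 2 and 4 therefore lay within the range of KO libraries. With the length trend removed, the medians were -0.17, 0.10, -0.08 and 0.00163 in WT and 0.10, 0.11, 0.01 and -0.01 in KO libraries. WT replicate 1 was still the lowest, at a smaller distance.

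**Figure D4:**
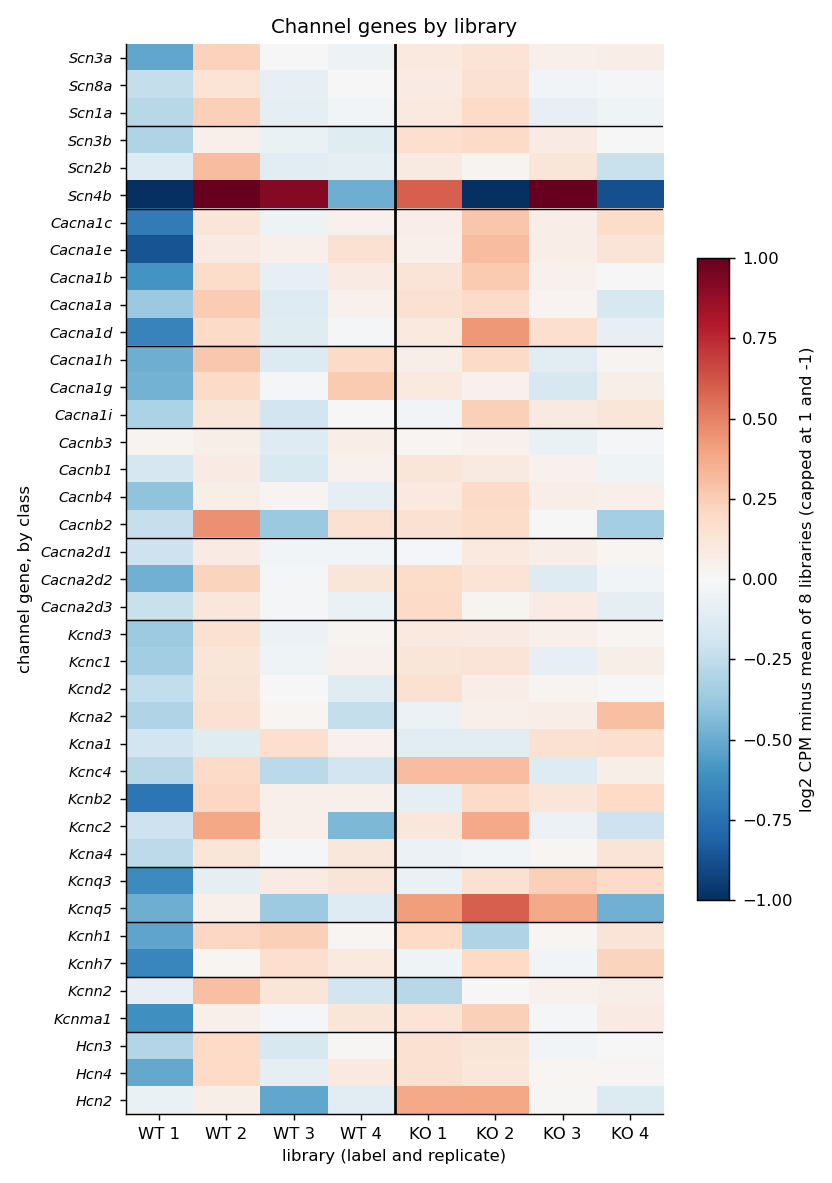
log2 CPM of each channel gene minus its mean over the 8 libraries (colour scale, capped at 1 and -1), with libraries in columns and genes in rows by class. WT replicate 1 is the lowest library in 32 of 39 rows, WT replicate 2 and KO replicate 2 are each the highest in 13, and Scn4b varies widely on 2 to 22 reads.

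Markers of cell types were counted in the same comparison, and none of them was called. In bulk tissue, fewer cells of a type and less RNA per cell cannot be told apart. Over all tested genes 49.2% were above 0, 5.53% had an unadjusted p under 0.05, and 3.00% had such a p and were higher in KO libraries. The marker counts use all libraries, WT replicate 1 included, in which sex and label cannot be fully told apart. The 8 tested neuron markers (Tubb3, Map2, Dcx and others) had 8 of 8 log2 fold changes above 0, with a median of 0.09 and 0 called, and summed levels of 5920 to 6157 CPM in WT and 6143 to 6499 CPM in KO libraries. The 9 cortical progenitor markers (Pax6, Sox2, Hes5 and others) had 9 of 9 below 0, with a median of -0.19, 4 at an unadjusted p under 0.05 and 0 called. Their sums were 1950 to 2333 CPM in WT and 1828 to 2191 CPM in KO libraries. The 8 astrocyte and oligodendrocyte markers had 7 above 0 (median 0.20, 3 higher at an unadjusted p under 0.05, 0 called, 314 to 368 CPM in WT and 342 to 376 CPM in KO). The excitatory neuron markers of dorsal cortex, such as Emx1, Tbr1 and Neurod6, were present at sums of 3435 to 3949 CPM in WT and 3406 to 3802 CPM in KO libraries and had 6 of 8 values below 0 (median -0.02). Interneuron markers, which the removal of the ganglionic eminences should reduce, had sums of 563 to 732 CPM in WT and 551 to 729 CPM in KO libraries, with 4 of 8 above 0. The meningeal and vascular, microglia and red blood cell lists had 5 of 9, 5 of 6 and 2 of 5 tested markers above 0 and none called, with 2 red blood cell markers lower at an unadjusted p under 0.05. Their sums were 150 to 159, 43.8 to 51.3 and 33.2 to 58.1 CPM in WT and 146 to 159, 45.3 to 53.5 and 23.2 to 36.7 CPM in KO libraries. The counts of the adult globins Hba-a1, Hba-a2 and Hbb-b2 were 0 throughout. How reads that map to several genes were counted is not stated, so these counts do not show that adult globin RNA was absent. In the neuron, excitatory neuron and interneuron lists an unadjusted p under 0.05 was seen in 1 marker each, above 0 in the first pair and below 0 in the last. The part of these differences in the channel result was not tested.

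By library the channel genes did not follow the neuron markers in WT replicate 1, where the neuron median was -0.04 beside -0.35 for channels. In the other 7 libraries the neuron median ran from -0.10 to 0.10 and the channel median from -0.04 to 0.15. The progenitor median was 0.18, -0.07, 0.16 and 0.12 in WT replicates 1 to 4 and -0.16, -0.20, -0.12 and 0.11 in KO replicates 1 to 4. The astrocyte and oligodendrocyte median was -0.12, 0.07, -0.06 and -0.22 in WT replicates 1 to 4 and 0.24, 0.29, 0.17 and -0.14 in KO replicates 1 to 4. In both of these lists KO replicate 4 differed from the other KO libraries, as it did in Kcnq5. The red blood cell median was 0.69 in WT replicate 1 and -0.19 to 0.45 in the other 7 libraries. Also in WT replicate 1, microglia markers were at 0.20 and excitatory neuron markers at 0.15. Interneuron markers were at 0.07 there, and meningeal and vascular markers at -0.15.

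**Figure D5:**
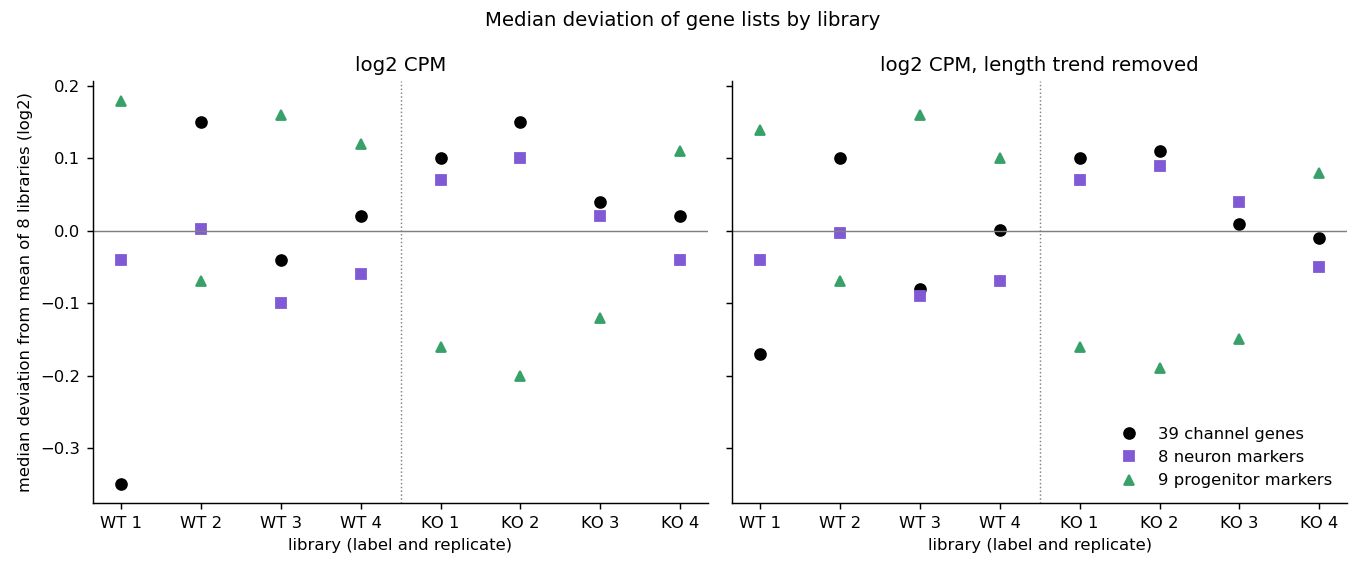
Median log2 difference from the mean of the 8 libraries for the 39 channel genes, 8 neuron markers and 9 progenitor markers in each library, on log2 CPM (left) and with the trend of each library with transcript length removed (right). Channel genes in WT replicate 1 are at -0.35 on the left and -0.17 on the right, while neuron markers are at -0.04 on both.

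Other channel genes came from a list of 70 with members of the same families and further auxiliary subunits. They were counted in the same libraries as the 39 genes and are no independent check of them. Of the 70 genes, 69 were among the counted symbols and 54 were tested. With all libraries, 40 log2 fold changes were above 0 and 14 below, with a median of 0.07 and 0 called. An unadjusted p under 0.05 was seen in 4 above 0 and 1 below. The gene below 0 was Kcnn1 (log2 fold change -0.54, SE 0.19, adjusted p = 0.810 by edgeR). It had 25.6 to 47.5 CPM in WT and 21.7 to 36.0 CPM in KO libraries. Over all tested genes 49.2% were above 0 and 5.53% had an unadjusted p under 0.05. WT replicate 1 was also low in this list, with a median deviation of -0.25 against -0.09 to 0.14 in the other 7 libraries. With the length trend removed, the median of this list in WT replicate 1 was -0.20. Scn2a1, a sodium channel alpha gene of early axons, had 40.5 to 56.9 CPM in WT and 50.5 to 71.5 CPM in KO libraries (log2 fold change 0.38, SE 0.12, adjusted p = 0.810). Kcnab1, a Kv1 auxiliary subunit gene, had 6.53 to 7.44 CPM in WT and 7.78 to 10.8 CPM in KO libraries (log2 fold change 0.38, SE 0.12, adjusted p = 0.810). All KO libraries of Kcnab1 lay above all WT libraries, which was the case for 1.86% of all tested genes. Kcnab1 is named because its p was among the smallest of this list. With all libraries, the 8 tested genes of a list of axon initial segment and sodium channel partners all had values above 0, with a median of 0.07 and 0 called. Their median deviation was -0.24 in WT replicate 1 and -0.02 to 0.09 in the other 7 libraries, and with the length trend removed it was -0.04 in WT replicate 1.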

How the data were processed

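RNA of 8 E15.5 dorsal cortex samples (4 WT, 4 KO by label) was measured. Per the labels and methods, the authors prepared unstranded polyA libraries, sequenced 50-nt single-end reads, mapped them to mm9 with HISAT and counted them with HTSeq-count. The gene annotation is not given in the sources used here. The deposited files hold raw counts per gene symbol. The authors' DESeq2 table (fold changes and p-values) was not used. The 39 genes and all gene lists were chosen with earlier results of these data known.

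Counts were tested in edgeR 4.0.16 (R 4.3.3) with TMM, filterByExpr (minimum count 10, minimum total 15), glmQLFit, glmQLFTest and Benjamini-Hochberg adjustment over 14696 genes. The common biological coefficient of variation was 10.7%. CPM is after TMM, and log2 CPM has a prior count of 2. Lengths, positions and sequences came from GENCODE vM1 on NCBIM37, and 304 tested genes had no length. Single genes were also tested with the exact permutation test over 70 assignments. Fold changes are given for genes past the adjusted threshold, the 12 with the smallest p and the highest per kb of each of 11 classes, and for other channel genes only the 3 with the smallest p, of which 1 is not reported here. Any other gene with a printed fold change, such as Kcnn1, was picked after its values had been seen. In simulated data of this comparison with 14696 genes, 176 of 200 genes changed 2-fold were recovered, with 6 false calls among the unchanged genes. The largest log2 fold change of the 39 channel genes was 0.51, and recovery at sizes below 2-fold was not tested. Depth was 28205703 to 48871480 reads per library. Alternatives were RLE normalization, other filters, DESeq2 1.42.0, a replicate block, length-trend removal (lowess span 0.3), Xist as a covariate, libraries with Ddx3y reads alone, each library left out and coding length.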

Additional observations from a re-analysis of the deposited data

How the results depend on the processing

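No channel gene was called under any of the 16 alternatives run. The number of the 39 genes with an unadjusted p under 0.05, 2 in the reported fit, was 9 with the replicate number as a block, 5 with the length trend removed (7.07% of all genes), 5 in the libraries with Ddx3y reads alone (4.84%), 0 with Xist as a covariate (1.68%), and 1 to 12 with each library left out (12 without WT replicate 2, where 9.40% of all genes reached it, and 1 without WT replicate 1 or KO replicate 1 or 2, with 5.93%, 3.63% and 2.90% of all genes). Replicate numbers share no stated animal or batch, and the correlations of same-numbered deviations were 0.0236 to 0.135, so the block of 9 genes (6.97% of all genes) is not read as pairing. The number of all genes called, 4 as reported, was 23 with DESeq2, 2 with the length trend removed, 1 with RLE normalization, the replicate block, Xist or the Ddx3y libraries, and 1 to 13 with each library left out (13 without WT replicate 4). Of the 39 genes, 25 to 38 were above 0 with each library left out, and 27 to 35 under the other alternatives. Scn3b had an unadjusted p under 0.05 under every alternative except Xist as a covariate.

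Of 304 fold changes of named channel genes under these alternatives, 288 kept their direction and 16 reversed, and 13 of the 19 genes never reversed. Cacna1h was at -0.00936 with the length trend removed, -0.11 with Xist, -0.15 in Ddx3y libraries and -0.07 to 0.16 with a library left out. Kcnh1 was at -0.04 with the length trend removed and -0.13 to 0.10 with a library left out, and Cacnb3 at 3.63e-05 and -0.06 to 0.00427. Kcnn2 was at 0.17 with Xist, 0.14 in Ddx3y libraries and -0.16 to 0.00528 with a library left out. In Ddx3y libraries Kcnq3 was at -0.00137 and Kcnma1 at -0.00365. The causes were not tested. By coding length the class shares were 34.9% for sodium channel beta, 25.9% for calcium channel beta, 14.2% for Kv1 to Kv4, 6.69% for alpha2delta, 4.06% and 3.65% for high- and low-voltage alpha1, 3.17% for HCN, 3.09% for sodium channel alpha, 2.06% for Kv7, 1.49% for KCa and 0.748% for Kv10 to Kv12. Scn4b had only 2 to 22 reads per library.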
